A study of Mus musculus with 12 samples.

Results

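The early growth response genes Egr1, Egr2 and Egr3, the orphan nuclear receptor genes Nr4a1, Nr4a2 and Nr4a3, and the Egr co-regulator genes Nab1 and Nab2 were followed in mouse CD4 T cells. They were chosen by gene symbol and make up 8 of the 55450 genes in the deposited count tables, and all 8 were measured in every library. The study compared wild-type (WT) mice with Pkm2 knockout (KO) mice, which lack the M2 isoform of the glycolytic enzyme pyruvate kinase, in resting and in stimulated cells, and its title concerns CD4 T cell survival. Each of the 4 groups, WT resting, KO resting, WT stimulated and KO stimulated, had 3 RNA libraries. All cells were kept in medium with human IL7 at 25 ng/mL, the resting cells with IL7 alone. The stimulated cells were also plated on wells coated with anti-CD3 (1 ug/mL) and anti-CD28 (2 ug/mL). The series' design gives a culture of 24 hours and naive T cells of spleen and lymph nodes, whereas the sample labels give an overnight culture and splenocytes. RNA came from positively selected CD4 T cells. The labels give no strain, age, knockout allele or Cre driver. They also do not say whether each library had its own mouse, so the p-values speak of the spread among libraries, which may be technical.

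Egr1, Egr2 and Egr3 encode zinc-finger transcription factors that bind GC-rich sites. They are induced within minutes of T cell receptor signalling through MAP kinase, SRF and calcium pathways, and Egr2 and Egr3 are known for restraining T cell activation. The Nab proteins bind Egr proteins, mostly repress their targets through chromatin remodellers such as CHD4, and are themselves Egr targets. Nr4a1 (Nur77), Nr4a2 and Nr4a3 are nuclear receptors with no known natural ligand that are controlled mainly by their own transcription, with CREB and MEF2 sites in their promoters, and they are linked to T cell tolerance and exhaustion.

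The promoter stretches of Egr2, Nr4a2 and Nr4a3, the 3 members with the largest stimulation responses, and of Nr4a1 are shown because the genes are textbook targets of CREB or SRF. They come from RefSeq (GRCm38.p6), of which windows for 6 of the 8 genes were used, with Egr1 and Egr3 named only. Each stretch ends at the base before an annotated start and is printed 5′ to 3′ on the gene's strand, and capitals mark motif matches on either strand. The Egr2 stretch is chr10:67537619-67537868 (plus), before a start inside the gene. It is 1 of 5 Egr2 windows and was chosen after the search for its matches and its lack of exon bases. The window before the first start, chr10:67535249-67535498, held none of the motifs searched. The Nr4a1 stretch is chr15:101266596-101266845 (plus), also inside the gene's annotated span, and the Nr4a2 stretch is chr2:57124004-57124253 (minus). These 3 overlap no annotated exon of their gene. For Nr4a3 the printed stretch is the 98 bases outside annotated exons, chr4:48045055-48045152 (plus).
Egr2: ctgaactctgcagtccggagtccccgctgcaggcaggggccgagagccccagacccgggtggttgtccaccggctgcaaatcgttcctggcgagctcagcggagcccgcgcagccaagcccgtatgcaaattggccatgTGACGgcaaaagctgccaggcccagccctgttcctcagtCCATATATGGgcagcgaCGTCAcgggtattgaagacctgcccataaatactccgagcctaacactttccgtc
Nr4a1: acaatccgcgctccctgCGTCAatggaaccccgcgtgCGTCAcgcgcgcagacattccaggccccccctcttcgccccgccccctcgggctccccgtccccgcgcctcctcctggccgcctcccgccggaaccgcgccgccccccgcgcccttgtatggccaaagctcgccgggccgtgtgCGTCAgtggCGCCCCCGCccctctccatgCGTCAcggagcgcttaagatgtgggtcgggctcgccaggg
Nr4a2: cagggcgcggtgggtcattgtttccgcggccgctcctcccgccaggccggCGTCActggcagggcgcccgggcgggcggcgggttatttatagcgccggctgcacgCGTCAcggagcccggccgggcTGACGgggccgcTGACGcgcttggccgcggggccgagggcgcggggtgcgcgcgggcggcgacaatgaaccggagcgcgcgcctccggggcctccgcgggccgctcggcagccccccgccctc
Nr4a3: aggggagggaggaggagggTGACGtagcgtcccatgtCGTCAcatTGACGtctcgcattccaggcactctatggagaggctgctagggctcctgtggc
The search took the CREB core site TGACG, the full CREB site TGACGTCA, which contains the core site, the CArG box bound by SRF, the Egr sites GCGTGGGCG and GCGGGGGCG, the Nr4a site AAAGGTCA and the AP-1 site TGANTCA, each on both strands. In the Egr2 stretch it found 1 CArG box and 2 core sites. The Nr4a1 stretch held 4 core sites and 1 GCGGGGGCG, and the Nr4a2 stretch held 4 core sites. The whole Nr4a3 window held 4 core sites, 3 of them in the printed stretch. Among all 32851 RefSeq windows of the same 250 bases, at least 2 core sites occurred in 3.90% and at least 4 in 0.137%. A CArG box occurred in 1.47% and GCGGGGGCG in 2.57%. These letter matches are descriptions and show no binding.

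On mm10 (GENCODE M21 annotation), Egr1 lies on chromosome 18 (34859823 to 34864984, plus strand), Egr2 on chromosome 10 (67535475 to 67542188, plus), and Egr3 on chromosome 14 (70077203 to 70082614, plus). Nr4a1 lies on chromosome 15 (101254269 to 101274795, plus), Nr4a2 on chromosome 2 (57106830 to 57124003, minus), and Nr4a3 on chromosome 4 (48045153 to 48086447, plus). Nab1 lies on chromosome 1 (52457294 to 52500679, minus) and Nab2 on chromosome 10 (127660918 to 127668568, minus). Nab2 exons share bases with genes on the other strand: 1.36% of its exon bases with Stat6, 5.13% with Nemp1 and 35.7% with the antisense gene Gm16229. The labels do not say whether reads were counted by strand, so reads in those bases cannot be told apart, although Gm16229 itself reached at most 0.195 CPM in any library.

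Library totals ran from 63266498 to 76891812 counts, and levels are given in CPM, the count scaled to the TMM-adjusted library total. Pkm, counted over all its isoforms, averaged 455 CPM in WT and 185 CPM in KO at rest, and 2485 and 1052 CPM after stimulation. The 10 CD4 T cell marker genes, Cd4 and Cd3e included, were present in every library and summed to between 2898 and 4552 CPM. Markers of other cell types moved with the groups: 13 myeloid markers summed to 3507, 1915 and 1253 CPM in WT resting, 1118 to 1149 CPM in KO resting, 40.0 to 67.7 CPM in WT stimulated and 97.2 to 103.3 CPM in KO stimulated. The 10 B cell markers summed to 1172 to 2111 CPM in WT resting, 1514 to 1708 CPM in KO resting, 451 to 687 CPM in WT stimulated and 851 to 883 CPM in KO stimulated, and no marker gene of either list was at 0 throughout a group. Library 1 of each resting group also stood apart in 6 erythroid genes (1468 and 1367 CPM, against 53.3 to 434 CPM in the other resting libraries). Xist was at 0.0867 CPM or below in every resting library and at 941 to 1126 CPM in every stimulated one, whereas the Y-linked genes Ddx3y, Kdm5d, Uty and Eif2s3y were detected in every resting library and had no count in any stimulated one. The resting and stimulated libraries therefore also differ in sex-linked transcripts, and that difference and stimulation cannot be told apart.

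In levels scaled by edgeR's TMM method, all 8 genes were higher in stimulated than in resting cells in both genotypes. Over all genes tested, 46.9% lay above 0 in WT and 47.1% in KO. The Egr3 rise in KO did not pass the test. On library totals Nab1 in both genotypes, Nr4a1 in WT and Egr3 in KO lay below 0. On the TMM scale Egr2, Nr4a2 and Nr4a3 were 7.47 to 11.0 times higher, whereas the other 5 genes differed by at most 1.73 times. Egr2, which restrains T cell receptor signalling, stood at 13.6, 15.3 and 13.3 CPM in WT resting and 12.7, 14.6 and 15.9 CPM in KO resting. After stimulation it reached 108, 119 and 108 CPM in WT and 112, 107 and 111 CPM in KO. Resting and stimulated libraries did not overlap, and the log2 fold change was 2.99 ± 0.08 (SE) in WT and 2.93 ± 0.08 in KO. Egr1, the family member most used as an activation marker, went from 57.7, 63.6 and 62.5 CPM to 94.3, 106 and 97.5 CPM in WT, and from 61.1, 66.7 and 70.6 CPM to 102.3, 102.6 and 102.2 CPM in KO. These groups were also apart, with log2 fold changes of 0.70 ± 0.06 and 0.63 ± 0.06. Egr3, which overlaps in function with Egr2, was at 33.8, 34.2 and 39.3 CPM in WT resting and at 47.9, 50.4 and 54.4 CPM in WT stimulated. In KO it was at 36.6, 43.3 and 48.5 CPM at rest and at 47.1, 48.9 and 48.9 CPM after stimulation. The KO groups overlapped, and the Egr3 response passed the test in WT (0.51 ± 0.09) and not in KO (0.17 ± 0.09, edgeR quasi-likelihood adjusted p = 0.095). Without KO resting library 3 the KO value of Egr3 was 0.28 and passed (adjusted p = 0.011).

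Among the nuclear receptors, Nr4a2 was the scarcest, at 1.47, 1.72 and 1.54 CPM in WT resting and 1.45, 1.38 and 1.67 CPM in KO resting. It reached 15.1, 14.3 and 14.9 CPM in WT and 15.3, 16.9 and 17.2 CPM in KO after stimulation, log2 fold changes of 3.23 ± 0.10 and 3.46 ± 0.10. Nr4a3 rose from 19.9, 24.1 and 28.5 CPM to 165, 175 and 202 CPM in WT. In KO it rose from 22.6, 26.9 and 28.4 CPM to 195, 189 and 217 CPM. Every stimulated library lay far above every resting one, and the log2 fold changes were 2.90 ± 0.14 and 2.95 ± 0.14. Nr4a1, widely used as a reporter of T cell receptor signal strength, was already high at rest, at 73.8, 79.3 and 75.7 CPM in WT and 58.3, 62.1 and 68.0 CPM in KO. After stimulation it was at 95.3, 100.3 and 84.0 CPM in WT and 112, 108 and 106 CPM in KO. Its log2 fold change was 0.29 ± 0.07 in WT and 0.79 ± 0.07 in KO, both past the test.

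Nab1 had the smallest log2 fold change of the 8 genes in both genotypes. It was at 82.0, 83.8 and 96.3 CPM in WT resting and at 98.7, 100.4 and 103.1 CPM in WT stimulated. In KO it was at 87.1, 95.6 and 90.8 CPM at rest and at 98.3, 99.9 and 102.8 CPM after stimulation. The log2 fold changes were 0.21 ± 0.06 in WT and 0.14 ± 0.06 in KO (edgeR adjusted p = 0.042), and the KO call was lost without KO resting library 1 or 3 or KO stimulated library 2 or 3 (adjusted p from 0.051 to 0.125). It was also lost with DESeq2 size factors (adjusted p = 0.074), in DESeq2's Wald test (0.072), with no filter on low counts (0.066) and with a filter of 1 CPM (0.102). Nab2 was at 68.1, 78.7 and 83.4 CPM in WT resting and at 98.1, 102.0 and 107 CPM in WT stimulated. In KO it was at 67.1, 77.9 and 77.7 CPM at rest and at 108.5, 109.7 and 111.0 CPM after stimulation, giving 0.41 ± 0.07 in WT and 0.56 ± 0.07 in KO. Nemp1, with which Nab2 shares exon bases, itself had log2 fold changes of 1.96 and 1.74, and its part in the Nab2 values was not tested.

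**Figure D1:**
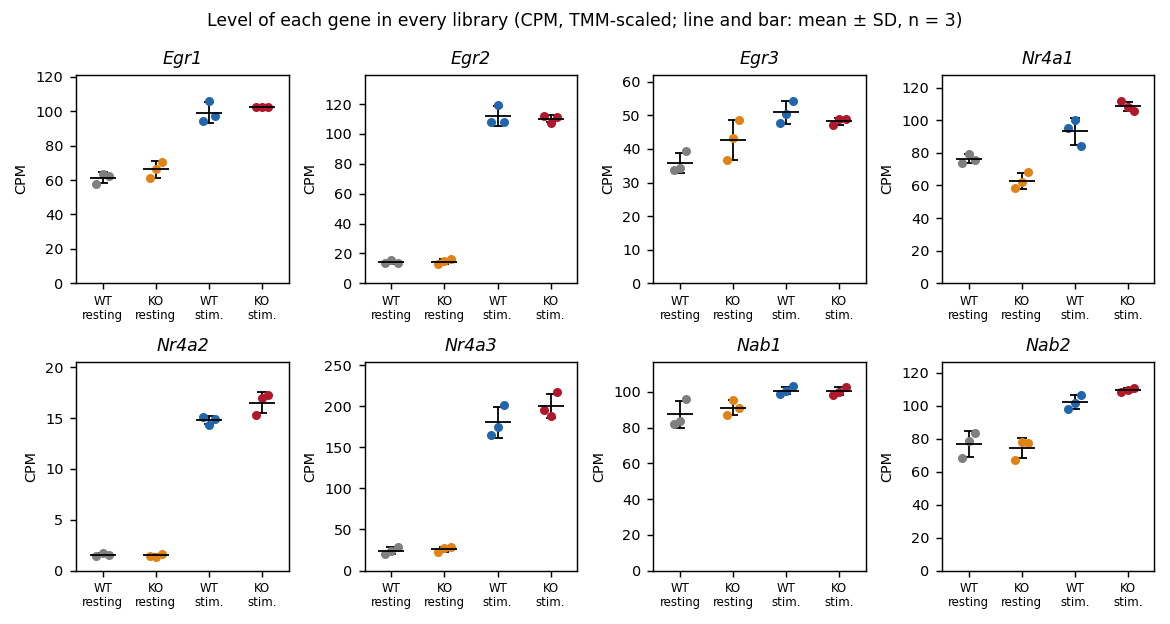
Level of each of the 8 genes in CPM (vertical axes from 0, TMM-scaled) in the 3 libraries of WT resting (grey), KO resting (orange), WT stimulated (blue) and KO stimulated (red), with the mean and SD as a line and bar. Egr2, Nr4a2 and Nr4a3 separate strongly by stimulation, whereas Nr4a1 is lower in the KO than in the WT libraries at rest and higher after stimulation.

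Counted together, 8 of 8 genes were called higher in WT at an adjusted p under 0.05, where 39.3% of the 17460 genes tested were called higher and 84.1% were called in either direction, and in all 8 the stimulated libraries lay above the resting ones, as in 39.7% of all genes. In KO 7 of 8 were called higher, against 39.6% of all genes (82.9% in either direction), and the libraries of the same 7 did not overlap, as in 41.3% of all genes. The median log2 fold change of the 8 was 0.60 in WT and 0.71 in KO, beside -0.14 and -0.11 over all genes tested. Scaling by library totals alone placed the median of all genes lower by 0.338 in WT and 0.327 in KO, and the split of all calls moved from 6860 higher and 7821 lower to 5544 higher and 9351 lower in WT, and from 6917 and 7552 to 5537 and 9110 in KO. On that scale Egr1, Egr2, Nr4a2 and Nr4a3 still passed as higher in both genotypes, while Nab1 passed as lower in both (-0.13 and -0.19). Nr4a1 in WT (-0.05) and Egr3 in KO (-0.15) changed sign and did not pass, and Egr3 and Nab2 in WT fell short of the test (0.17 and 0.08). With the B cell and myeloid marker level as a covariate, which runs largely with stimulation, 2 members remained called in WT (Egr2 and Nr4a2) and 5 in KO. In these bulk libraries fewer cells of a type and less RNA per cell cannot be told apart.

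**Figure D2:**
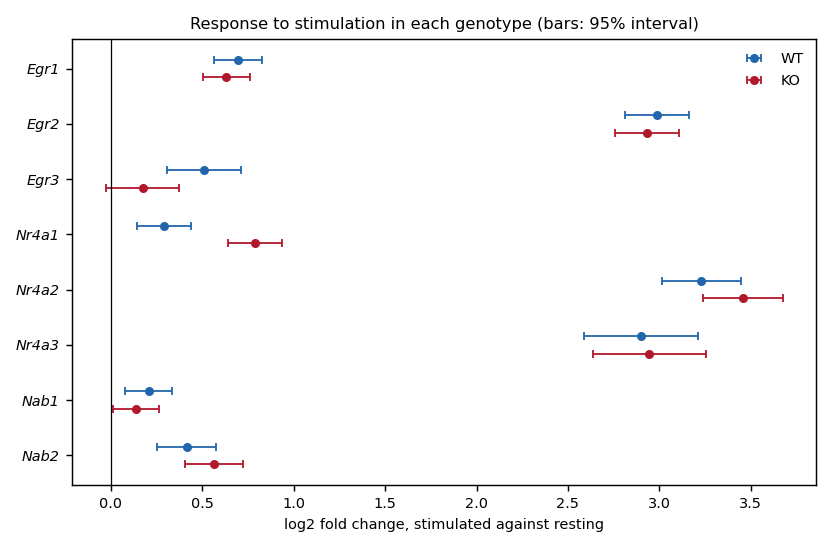
Log2 fold change of stimulated against resting cells (horizontal axis) for each gene in WT (blue) and KO (red), with the 95% interval, TMM-scaled. Egr2, Nr4a2 and Nr4a3 lie between 2.90 and 3.46 and the others below 0.80, and on library totals Nab1 in both genotypes, Nr4a1 in WT and Egr3 in KO fall below 0.

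Levels of different genes were compared per exon length, in TPM, the usual length-normalised unit, which are scaled to the total of each library and not by TMM. In WT resting cells the order was Nab2 (90.1 TPM), Nr4a1 (75.2), Nab1 (73.5), Egr1 (47.3), Egr3 (28.0), Egr2 (14.4), Nr4a3 (13.9) and Nr4a2 (1.34). The libraries of Nr4a1 and Nab1, and those of Egr2 and Nr4a3, overlapped, and the other neighbours were apart. KO resting cells had the same order except that Nab1 (80.1 TPM) stood apart above Nr4a1 (64.5 TPM) and that Nr4a3 (15.6 TPM) and Egr2 (15.3 TPM), which overlapped, changed places. In WT stimulated cells the order was Nab2 (97.2 TPM), Egr2 (91.9), Nr4a3 (84.3), Nr4a1 (74.2), Nab1 (68.7), Egr1 (61.8), Egr3 (32.3) and Nr4a2 (10.2), and each of the first 4 overlapped the next. In KO stimulated cells Nab2 (106.7 TPM) stood apart, Nr4a3 (95.7), Egr2 (92.8) and Nr4a1 (88.4) overlapped their neighbours, and Nab1 (70.0), Egr1 (65.3), Egr3 (31.4) and Nr4a2 (11.6) followed. Nr4a2 was thus last in all 4 groups and Nab2 first.

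Within each family the make-up shifted with stimulation. Egr2 made up 16.01% ± 1.2 (SD, n = 3) of the summed Egr TPM in WT resting cells and 49.4% ± 1.0 in WT stimulated cells, and 14.8% ± 0.2 and 49.0% ± 0.7 in KO. The Egr1 share went from 52.7% ± 0.8 to 33.2% ± 0.3 in WT. Nr4a1 made up 83.1% ± 2.2 of the summed Nr4a TPM in WT resting cells and 44.0% ± 4.3 in WT stimulated cells, and 79.2% ± 0.8 and 45.2% ± 2.2 in KO. Nr4a3 took most of the difference, at 15.4% and 49.9% in WT and 19.2% and 48.8% in KO. None of these shares overlapped between resting and stimulated libraries. The summed TPM was 89.6 and 186 for Egr and 90.5 and 169 for Nr4a in WT resting and stimulated cells, whereas the Nab sum was 164 and 166.

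**Figure D3:**
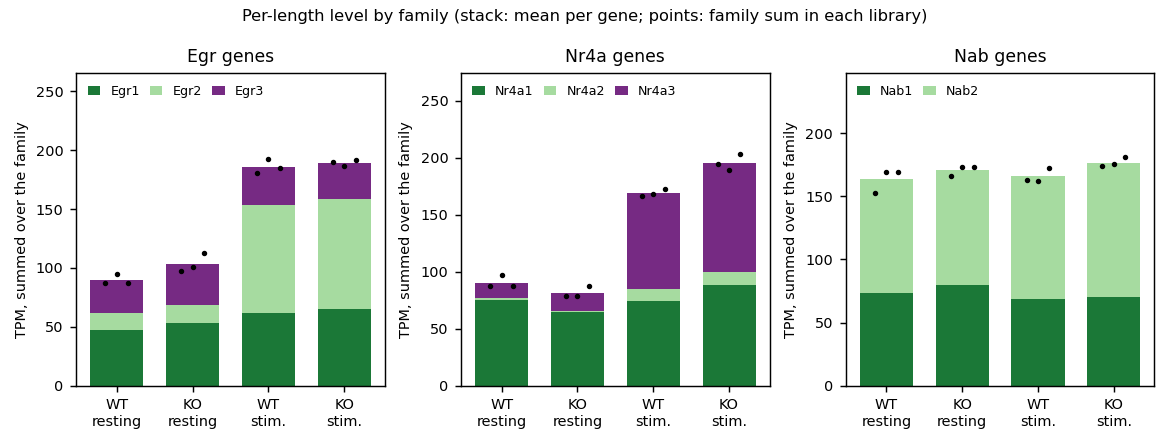
Summed TPM of the Egr, Nr4a and Nab genes in the 4 groups, with stacked bars for the mean of each gene and black points for the family sum in each library. Egr2 and Nr4a3 are thin layers at rest and have the largest mean of their family after stimulation, where Nr4a3 and Nr4a1 libraries overlapped. The Nab bars stay between 164 and 177 TPM.

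At rest no member was called between KO and WT, where 0.0361% of the 16637 genes tested were called (6 genes), and 1 member had an unadjusted p under 0.05, against 13.7% of all genes. That member was Nr4a1. Its KO libraries (58.3 to 68.0 CPM) all lay below its WT libraries (73.8 to 79.3 CPM), as did those of 9.97% of all genes, with a log2 fold change of -0.29 ± 0.07 (edgeR adjusted p = 0.24). DESeq2's Wald test called it (adjusted p = 0.011). Egr3 had a log2 fold change of 0.25 ± 0.11 (edgeR adjusted p = 0.37) with overlapping libraries. The interval of Egr3 (-0.0025 to 0.50) and those of the other 6 genes took in 0. Among these 6 the narrowest was that of Nab1 (-0.09 to 0.20) and the widest that of Nr4a2 (-0.50 to 0.34). The median over the 8 was 0.04, beside 0.01 over all genes.

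After stimulation no member was called between KO and WT either, where 4.76% of the 15090 genes tested were called (508 higher and 211 lower, or 567 and 120 on library totals), and 3 members had an unadjusted p under 0.05, against 20.6% of all genes. Nr4a1 had a log2 fold change of 0.23 ± 0.06 (edgeR adjusted p = 0.066), Nr4a2 of 0.17 ± 0.06 (0.14) and Nab2 of 0.11 ± 0.03 (0.11). In each of these 3 genes every KO library lay above every WT library, as did those of 13.4% of all genes. For Nr4a1 the call depended on the fit: it passed without WT stimulated library 2 (0.28, adjusted p = 0.017), with no filter on low counts (adjusted p = 0.043), on library totals (0.046) and in DESeq2's Wald test (0.0040). Nr4a1 also passed with the replicate number as a block (edgeR adjusted p = 0.0065). Nr4a3 had a value of 0.16 ± 0.08 (edgeR adjusted p = 0.36), with overlapping libraries, and passed with that block (0.016). Egr1 (0.05), Egr2 (-0.01), Egr3 (-0.07) and Nab1 (0.00) had 95% intervals within -0.17 and 0.14. The median over the 8 was 0.08, beside 0.00 over all genes.

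**Figure D4:**
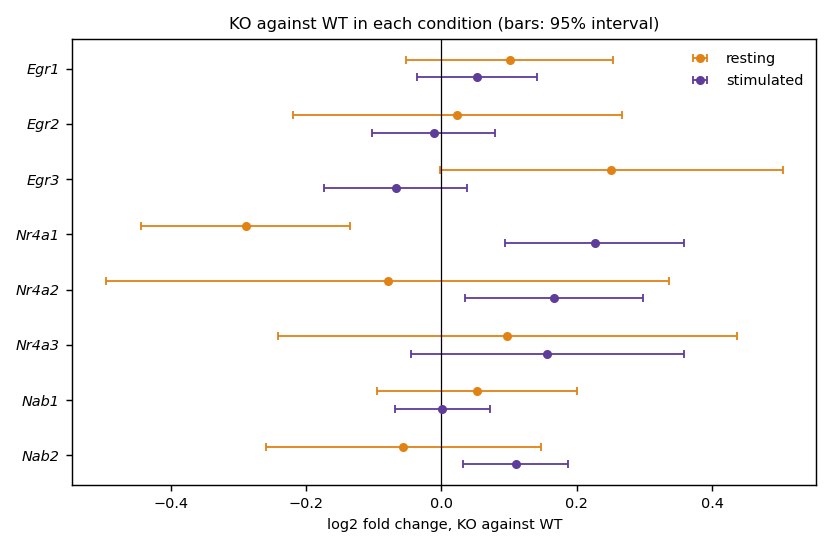
Log2 fold change of KO against WT (horizontal axis) for each gene in resting (orange) and stimulated cells (purple), with the 95% interval. Nr4a1 is at -0.29 at rest and 0.23 after stimulation, and none of the 16 values passed at an adjusted p under 0.05.

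Whether the stimulation response itself differed with genotype was tested in 1 model of all 12 libraries. Since resting and stimulated libraries of both genotypes also differed in sex-linked transcripts, this test cannot tell that difference from stimulation. Nr4a1 was the 1 member of 8 called, where 0.693% of 17460 genes were called and 0.556% were called higher (97 higher and 24 lower, or 87 and 38 with DESeq2 size factors). Its response was larger in KO by 0.50 ± 0.10 on the log2 scale (95% interval 0.29 to 0.71, edgeR adjusted p = 0.039), or 1.41 times. This call was near the threshold: it was lost when any 1 of 8 of the 12 libraries was left out (adjusted p from 0.017 to 0.108 over the 12 fits, values from 0.43 to 0.56), and was kept without WT resting library 1 or 3, KO resting library 3 or WT stimulated library 2. DESeq2's Wald test gave 0.48 with an adjusted p of 0.00070. The myeloid marker sum was lower in every KO than in every WT library at rest and higher after stimulation, whereas the B cell sums overlapped at rest and were higher in KO after stimulation. With the level of both lists as a covariate the Nr4a1 difference was 0.45 ± 0.13 and did not pass (adjusted p = 0.25). Egr3 leaned the other way, at -0.33 ± 0.13 (edgeR adjusted p = 0.23). The differences of Egr1 (-0.07), Egr2 (-0.05), Nr4a2 (0.23), Nr4a3 (0.04), Nab1 (-0.07) and Nab2 (0.15) had intervals that took in 0, the widest being -0.37 to 0.46 for Nr4a3.

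**Figure D5:**
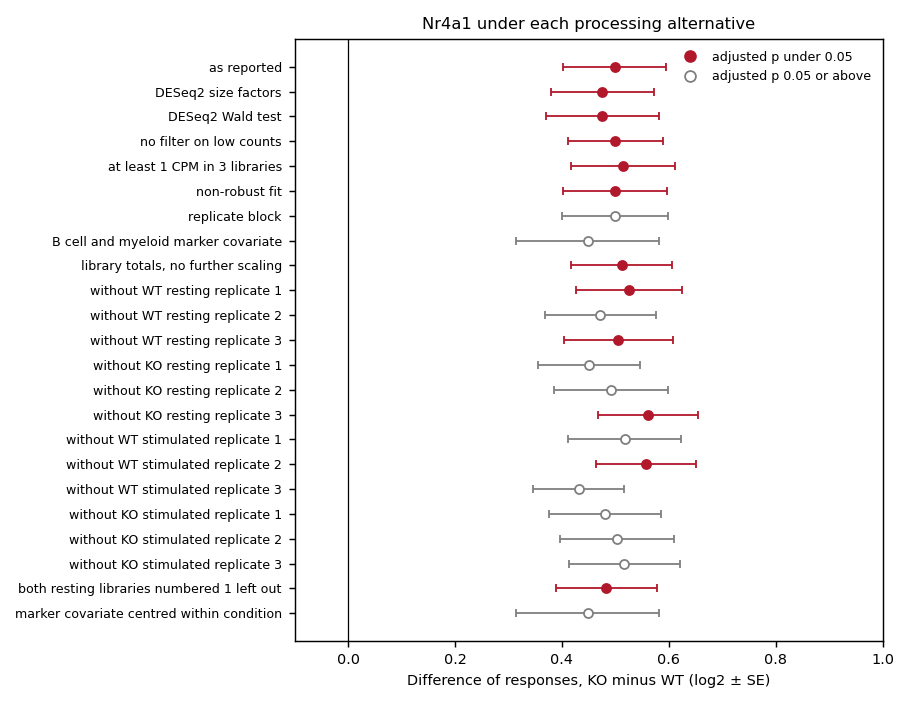
Difference of the Nr4a1 stimulation response, KO minus WT (log2 ± SE, horizontal axis), as reported and under each processing alternative, filled where the adjusted p was under 0.05. The values stay between 0.43 and 0.56 while the call comes and goes.

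Lists of genes around the members were examined in the same fits, in which 39.3% of all genes were called higher and 44.8% lower after stimulation in WT, and 39.6% and 43.3% in KO. Of 6 genes for SRF and its partners, which switch on Egr genes, 1 was called higher and 5 lower after stimulation in both genotypes. Mrtfa, an SRF coactivator, fell by 1.41 in WT and 1.43 in KO on the log2 scale, and Elk4, an SRF partner, by 1.04 and 0.91. Of 14 CREB, MEF2 and class IIa histone deacetylase genes, which act on Nr4a promoters, 2 were higher and 9 lower in WT, and 3 and 8 in KO. Crem, a CREB-related factor induced by cyclic AMP, rose by 2.68 and 2.82, whereas Crtc3, a CREB coactivator, fell by 1.54 and 1.55. Of 13 genes of the NuRD complex, to which Nab proteins bind, 9 were higher and 3 lower in each genotype. The histone-binding subunit gene Rbbp7 rose by 2.08 and 2.00, and the remodeller gene Chd3 fell by 2.06 in WT. In KO Chd3 went from a mean of 1010 to 220 CPM. The remodeller gene Chd4 went from a mean of 539 to 882 CPM in WT and from 550 to 858 CPM in KO. Of the 3 RXR genes, the dimer partners of Nr4a1 and Nr4a2, 2 were lower in WT and 1 in KO. Rxra had -0.60 ± 0.21 in WT (edgeR adjusted p = 0.026), with overlapping libraries. Without WT resting library 1 its value was -0.27 and did not pass (adjusted p = 0.0501), nor did it pass without WT stimulated library 2 (0.083) or 3 (0.066) or in the fit of the 6 WT libraries (0.083). Rxrb had 0.03 ± 0.05 in KO. The fourth Egr gene, Egr4, was scarce, at 0.0126 to 0.0496 CPM at rest and 0.317 to 0.678 CPM after stimulation, and passed as higher in both genotypes. No gene of these 5 lists was called between KO and WT in either condition or in the difference of responses. Median log2 differences between KO and WT lay between -0.17 and 0.04 at rest in the 4 lists tested there.

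Genes linked to the members in earlier T cell work were called in both directions, beside the same shares of all genes (39.3% higher and 44.8% lower in WT, 39.6% and 43.3% in KO). Of 17 genes linked to Egr2 and Egr3, 6 were higher and 8 lower in WT, and 7 and 7 in KO. Sema7a, a semaphorin, rose by 3.90 in WT and 4.16 in KO, and the chemokine gene Ccl1 rose by 4.46 and 4.34. Dgka, a diacylglycerol kinase that dampens T cell receptor signalling, fell by 2.97 in WT and went from a mean of 1024 to 129 CPM in KO. Lag3, an inhibitory receptor, rose by 4.08 in KO. Of 13 genes linked to Nr4a, 7 were higher and 6 lower in each genotype. Irf4, a factor of T cell activation, rose by 5.75 and 5.38, and the cytokine gene Il2 by 8.18 and 7.84, while Ifng, the interferon gamma gene, rose by 4.83 in KO. Naming took the largest changes of each genotype, so Dgka, Lag3 and Ifng have a log2 value in 1 genotype only. None of these was called in the difference of responses. Of 30 other immediate early genes, 19 were higher and 8 lower in WT, and 21 and 7 in KO. Atf3 rose by 5.26 and 5.76 and Myc by 3.13 and 2.92. Fosl1, an AP-1 subunit, was at 0.0496 CPM or below in resting libraries and at 16.9 to 19.4 CPM in stimulated ones.

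Between KO and WT after stimulation, 3 of the 17 Egr2 and Egr3-linked genes were called higher and none lower, where 3.37% of all genes were called higher. Tnfrsf9, the costimulatory receptor 4-1BB, was at 88.6, 99.8 and 97.0 CPM in WT and at 121, 128 and 134 CPM in KO, a log2 fold change of 0.43 ± 0.05 (edgeR adjusted p = 0.0025). Ndrg1, named as a T cell anergy factor, had 0.32 ± 0.05 (adjusted p = 0.013), and Sema7a had 0.27 ± 0.06 (adjusted p = 0.031). Of the 13 Nr4a-linked genes 1 was called, Entpd1 (the ectoenzyme CD39), at 1.76, 2.30 and 1.66 CPM in WT and 2.68, 2.79 and 3.49 CPM in KO (0.66 ± 0.16, adjusted p = 0.049). Of the 30 immediate early genes 6 were called higher and none lower: the AP-1 gene Fosb (0.53 ± 0.13), the phosphatase genes Dusp1 (0.43 ± 0.06) and Dusp5 (0.39 ± 0.05), and Jun, Zfp36 and Nfkbiz, named after their values were seen. The calls of Tnfrsf9, Dusp1 and Dusp5 held when each of the 6 libraries was left out in turn, that of Ndrg1 was lost in 3, those of Sema7a and Entpd1 in 5, and that of Fosb in all 6. In the fit of all 12 libraries Tnfrsf9 and Dusp5 kept their calls, while Dusp1 (adjusted p = 0.115), Ndrg1 (0.17), Sema7a (0.11), Entpd1 (0.44) and Fosb (0.095) lost theirs. The call of Entpd1 was also lost with DESeq2 size factors (0.051) and in a non-robust fit (0.057). Median log2 fold changes were 0.09, 0.12 and 0.07 for the 3 lists, beside 0.00 over all genes. Over the same libraries the B cell and myeloid marker sums were higher in every KO than in every WT library, as given above. With their level as a covariate, Dusp1 alone of these 7 genes kept its edgeR call. Tnfrsf9 had 0.30 (adjusted p = 0.068), Dusp5 0.25 (0.16), Ndrg1 0.17 (0.32), Sema7a 0.15 (0.53) and Entpd1 0.32 (0.60). The Fosb value was larger than without the covariate, at 0.82 ± 0.25 (adjusted p = 0.081). Since the marker sums did not overlap between the genotypes, this fit separates marker level from genotype poorly.

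At rest no gene of the 3 lists was called. The immediate early genes lay mostly lower in KO, with 25 of 29 log2 fold changes below 0 and a median of -0.17, beside 47.9% of all genes below 0. In the difference of responses 4 of the 30 were called, all higher in KO, where 0.556% of all genes were called higher. Of the 30, 26 lay above 0, beside 48.5% of all genes. Fos, the AP-1 subunit gene, was at 16.2, 11.5 and 9.46 CPM in WT resting and 6.05, 6.65 and 6.73 CPM in KO resting. After stimulation it was at 5.76, 6.05 and 6.55 CPM in WT and 6.45, 6.98 and 7.09 CPM in KO, a difference of responses of 1.09 ± 0.22 (edgeR adjusted p = 0.047). Its highest values were in the WT resting libraries, in the order of their myeloid marker sums. With the marker level as a covariate the difference was 0.47 (edgeR adjusted p = 0.45). Whether myeloid transcripts account for the Fos values was not tested beyond this fit. Dusp1 went from 29.6, 21.9 and 20.01 CPM to 8.50, 8.16 and 8.61 CPM in WT and from 15.9, 14.9 and 14.7 CPM to 11.4, 11.1 and 11.5 CPM in KO (difference 1.08 ± 0.16, adjusted p = 0.015, and 0.69 with the covariate, adjusted p = 0.18). The difference for Fosb was 0.96 ± 0.19 (adjusted p = 0.048), and the fourth gene, Dusp5, is named after its values were seen. Of the Nr4a-linked genes Tigit, an inhibitory receptor, was called: it went from 10.1, 10.4 and 10.6 CPM to 49.7, 53.4 and 48.7 CPM in WT and from 7.38, 7.97 and 8.58 CPM to 52.6, 52.5 and 58.9 CPM in KO (0.49 ± 0.09, adjusted p = 0.035). Leaving out 1 library at a time ended the call of Dusp1 in 1 of 12 fits (without KO stimulated library 3), of Tigit in 8, of Fos in 10 and of Fosb in 11. The call of Fos was also lost with DESeq2 size factors (adjusted p = 0.0504), in a non-robust fit (0.055) and on library totals (0.060). That of Fosb was also lost with DESeq2 size factors (0.051), with no filter (0.062) and without both resting libraries numbered 1 (0.070).

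Likeness to each member was measured as Pearson's r of log2 levels over the 12 libraries, among 9865 genes; these r values are descriptive and mostly reflect the shared stimulation contrast. The genes most like Egr2 were Top1mt, Lif and Lin9 (each r = 0.999). Those most like Nr4a2 were Slc9b2, Ppp2r3a and Spry1, and those most like Nr4a3 were Pcgf5, Aebp2 and Nfkb1 (r from 0.998 to 0.999). Egr1 was most like Grap, Eral1 and Ddx42 (r = 0.993), and Nab2 most like Tap1, Ccl22 and Tmed8 (0.977 to 0.987). Nab1 was most like Dnajc10, Cab39 and Fem1a, with r from 0.967 to 0.978. The patterns of Nr4a1 and Egr3 were less shared: Nr4a1 was most like the AP-1 gene Fosl2 (0.965), Entpd7 and Inf2, and Egr3 most like Dync1li1 (0.957) and Csk. Once each group's mean was removed, the members that varied together most among the 12 libraries were Nr4a3 with Nab2 (r = 0.932) and Egr1 with Egr2 (0.846), whereas Nr4a1 with Nr4a3 gave 0.050. Marker sums also varied within groups, the myeloid sum being 3507, 1915 and 1253 CPM in WT resting. In the same 3 libraries Nr4a3 was at 19.9, 24.1 and 28.5 CPM and Nab2 at 68.1, 78.7 and 83.4 CPM. Whether cell make-up accounts for these r values was not tested.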

How the data were processed

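RNA levels were measured in 12 polyA libraries of mouse CD4 T cells. The deposited tables hold expected counts per gene made by the authors with RSEM; RSEM 1.3.1, STAR 2.7.0f, cutadapt 1.18, bcl2fastq 2.20 and the build mm10 are listed per the submitters' processing notes. Gene identifiers and symbols matched GENCODE M21 for all 55450 genes. Between 6.87% and 7.18% of values were not whole, and all were rounded. edgeR 4.0.16 (R 4.3.3) gave TMM scaling, the filterByExpr filter (minimum count 10, minimum total 15) and robust quasi-likelihood tests with Benjamini-Hochberg adjustment over all genes tested, at a threshold of 0.05. Genotype was tested in fits of 6 libraries, stimulation and the difference of responses in 1 fit of 12. SE is the log2 fold change over the square root of F. CPM use TMM-scaled totals. TPM were computed from counts and the union of M21 exons. DESeq2 1.42.0 was an alternative. The members and lists were chosen with earlier results of these data known. Members were all described; of each list up to 3 called genes with the largest change and a mean of at least 1 CPM were named, or, with none called, its most abundant gene; the 3 genes most like each member were taken by r among genes of at least 5 CPM, and 1 of those genes is not reported here. The scripts were tested on simulated data. Replicate numbers were not used to pair the libraries in the main fits, and a block on them was tried as an alternative.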

Additional observations from a re-analysis of the deposited data

Results flagged for a closer look

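Groups of 3 libraries are too small for a check of single outlying libraries. 5 genes are listed here because their response to stimulation differed between KO and WT in the test of that difference itself (edgeR, 12 libraries, log2 scale, KO minus WT). In that test 0.693% of all genes were called, and 0.556% were called higher. For Nr4a1 the difference was 0.50 ± 0.10 (adjusted p = 0.039). For Tigit it was 0.49 ± 0.09 (adjusted p = 0.035), for Fos 1.09 ± 0.22 (0.047), for Dusp1 1.08 ± 0.16 (0.015) and for Fosb 0.96 ± 0.19 (0.048). Dusp5, also called in the same test, is not among the 5. As given above, the test cannot tell stimulation from the difference in sex-linked transcripts between resting and stimulated libraries. In each of the 5 genes the KO level was below the WT level at rest in every library, and after stimulation the KO against WT value was above 0. This pattern follows in part from how the 5 were picked, since the difference is the stimulated KO against WT value less the resting one. It is therefore no separate result. The mean myeloid marker sum was lower in KO at rest and higher in KO after stimulation. Its part in the 5 differences was not tested beyond the covariate fits, in which none of the 5 passed. There Nr4a1 (0.45 ± 0.13), Tigit (0.48 ± 0.13) and Fosb (0.97 ± 0.28) stayed near their values above with a larger SE. Fos (0.47 ± 0.21) and Dusp1 (0.69 ± 0.18) were smaller.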

How the results depend on the processing

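The calls near the threshold limit what can be said of Nr4a1 and of the genotype comparisons. Among the members' log2 fold changes, 352 of 392 values under the other alternatives and 356 of 384 with 1 library left out kept their direction and their side of the threshold. Nr4a2, the scarcest member, had the widest interval at rest (-0.50 to 0.34). Library totals as the only scaling, leaving out both resting libraries numbered 1, and the marker covariate centred within condition were chosen after seeing the data.

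Members called at rest were 0 and became 1 by DESeq2's Wald test. All genes called at rest were 6, and 518 by DESeq2, 40 with no filter, 207 with the marker covariate, 161 in the fit of 12 libraries, 30 without both resting libraries numbered 1, and 2 to 18 with 1 library left out (18 without WT resting library 1). Members called after stimulation were 0, and 1 by DESeq2, 1 with no filter, 1 on library totals, and 0 to 1 with 1 library left out. All genes called there were 719, and 1133 by DESeq2, 219 in the fit of 12 libraries, and 128 (without KO library 2) to 1408 (without WT library 2) with 1 library left out. For stimulation in WT the 8 member calls became 2 with the marker covariate and 5 on library totals, and all genes called went from 14681 to 6587 with the covariate. In KO all genes called went from 14469 to 8236 with the covariate, and member calls were 6 to 7 with 1 library left out. For the difference of responses the 1 member call became 0 with the marker covariate, centred or not, and 0 to 1 with 1 library left out. All genes called there were 121, and 1012 by DESeq2, 204 with a filter of 1 CPM, 23 with the covariate, 23 when it was centred, 209 without both resting libraries numbered 1, and 27 (without KO stimulated library 3) to 1657 (without WT resting library 3) with 1 library left out.

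Signs changed as follows, and the cause was not tested. With the marker covariate, KO against WT became -0.042 for Nr4a3 and -0.0094 for Nab1 at rest and -0.10 for Egr1 after stimulation. Stimulation in WT became -0.34 for Nab1, -0.19 for Nab2 and 1.66 for Rxra, and in KO -0.090 for Egr3 and -0.26 for Nab1. The difference of responses of Nab1 became 0.082, also when centred. On library totals the values were 0.010 for Egr2 (KO against WT, stimulated), -0.050 for Nr4a1 and -0.13 for Nab1 (stimulation in WT), and -0.15 for Egr3 and -0.19 for Nab1 (stimulation in KO). Nab1 in stimulated KO against WT was -0.00064 with DESeq2 size factors, -0.00059 in DESeq2's Wald test, -0.0018 with no filter and -0.0060 in the fit of 12 libraries. With 1 library left out the ranges that crossed 0 were, at rest, -0.054 to 0.10 for Egr2, -0.020 to 0.22 for Nr4a3 and -0.13 to 0.0095 for Nab2. After stimulation they were -0.042 to 0.036 for Egr2 and -0.015 to 0.019 for Nab1, and in the difference of responses -0.13 to 0.024 for Egr2 and -0.090 to 0.17 for Nr4a3.

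The replicate number in the titles was tried as a block. Same-numbered libraries did not deviate together in every pair (r of deviations from the group means from -0.23 to 0.40). In the KO libraries alone, each resting library correlated best with the stimulated library of its own number (r from 0.042 to 0.105). Across conditions a shared number cannot mark a shared mouse. The Y-linked Ddx3y was at 143 to 167 CPM in every resting library and had no count after stimulation. What else a shared number may mark is not given in the labels. With the replicate block, 2 members were called between KO and WT after stimulation (Nr4a1, adjusted p = 0.0065, and Nr4a3, adjusted p = 0.016), 0 in the difference of responses (Nr4a1 0.50, adjusted p = 0.057), and Egr3 passed for stimulation in KO (0.18, adjusted p = 0.015). The block also ended the calls of Fos (adjusted p = 0.078) and Fosb (0.075) in the difference of responses and of Sema7a (0.105) in KO against WT after stimulation.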
